A study of Mus musculus with 4 samples.

Results

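Egr1, Egr2, Egr3, Nr4a1, Nfatc1, Fos, Fosb, Jun, Junb and Jund encode transcription factors of the early response to T cell receptor (TCR) signalling. These 10 genes were taken by name out of 21896 protein-coding genes of the RefSeq table, and every accessible region within 1000 bp of a gene end, or over the gene body with 20 kb on each side, was collected for each. The assay was ATAC-seq, which cuts and tags open chromatin with a transposase, on sorted double-positive (DP, CD4+CD8+) thymocytes from the thymus of C57BL/6 mice. The wild type (WT) group carried CHAF1bfloxp/floxp, that is loxP-flanked alleles of Chaf1b with no Cre named. The knockout (KO) group carried the same alleles with Cd4-cre, whose Cd4 regulatory sequences drive the recombinase from about the DP stage. Chaf1b encodes the p60 subunit of the histone chaperone CAF-1, and the series concerns its part in the early development of invariant natural killer T (iNKT) cells. Each group had 2 replicates, which the authors joined into 1 list of regions per group. Differences are therefore between 2 lists, with no replicate value, no SD and no test between genotypes, and a region that was not called is not shown to be closed.

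Engagement of the TCR activates calcineurin, the ERK and JNK kinases and their nuclear targets within minutes. Calcineurin brings NFAT proteins such as NFATc1 into the nucleus, ERK acts through serum response factor and its ETS partners on Egr and Fos genes, and JNK acts on Jun. The EGR zinc finger proteins and the orphan nuclear receptor NR4A1 (NUR77) are widely used readouts of TCR signal strength in thymocytes, and EGR2 is required for iNKT development. FOS and JUN family proteins pair to form AP-1, the partner of NFAT on composite DNA sites.

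The WT list held 15215 regions and the KO list 7645. The background of reads over the genome, solved from the deposited values, was 1.37 in WT and 1.03 in KO, so that KO had 0.752 times the WT depth and would hold 42.9% of the summed reads of a site that is equally open. Over all WT regions, 46.2% overlapped a KO region, and 92.6% of KO regions overlapped a WT region. Of 14 DP thymocyte markers, 9 had a gene-end region in WT, among them Cd3g (fold enrichment 8.10), Themis (7.45), Rag2 (7.19) and Bcl11b (6.69), and 1 of the 9, Cd8b1, also had one in KO (5.43 in WT and 5.28 in KO). Over all protein-coding genes, 34.6% had a gene-end region in WT, and 59.4% of these also had one in KO. Cd4 and Cd8a had regions within 20 kb in both lists but none at a gene end. Of 8 B cell markers 1, Ebf1, had a gene-end region in WT (6.30), and of the myeloid, stromal and epithelial, erythroid and natural killer markers 0 had one in either list.

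Promoters with a region in WT only at the annotated start, and promoters with a region in both lists, are shown first. RefSeq promoter windows (GRCm38.p6, the assembly behind mm10) were at hand for 7 of the 10 genes, and the sequences run 5' to 3' on the strand of the gene, up to the base before the annotated start (position -1). In Fos (chr12:85473640-85473889, plus strand), Junb (chr8:84978749-84978998, minus strand) and Nr4a1 (chr15:101266596-101266845, plus strand), capitals mark TGACG or its reverse complement CGTCA, the core of the cAMP response element bound by CREB and ATF proteins.
Fos: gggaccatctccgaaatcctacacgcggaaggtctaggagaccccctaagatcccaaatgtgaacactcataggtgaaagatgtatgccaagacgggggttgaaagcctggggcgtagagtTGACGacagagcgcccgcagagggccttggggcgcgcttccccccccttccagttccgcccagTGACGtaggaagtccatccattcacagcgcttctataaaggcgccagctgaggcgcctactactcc
Junb: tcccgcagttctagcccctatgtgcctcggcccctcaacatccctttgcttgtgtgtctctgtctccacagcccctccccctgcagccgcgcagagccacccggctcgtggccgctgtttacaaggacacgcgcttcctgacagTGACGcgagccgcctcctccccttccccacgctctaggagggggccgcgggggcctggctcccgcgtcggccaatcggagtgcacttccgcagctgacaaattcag
Nr4a1: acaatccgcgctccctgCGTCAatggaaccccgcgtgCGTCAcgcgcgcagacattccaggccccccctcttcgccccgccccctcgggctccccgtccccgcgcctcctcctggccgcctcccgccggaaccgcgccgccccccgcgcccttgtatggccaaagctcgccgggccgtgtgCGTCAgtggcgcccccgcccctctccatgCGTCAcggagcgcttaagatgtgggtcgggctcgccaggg
The core was found at -129 to -125 and -66 to -62 in Fos, at -106 to -102 in Junb and at 4 places in Nr4a1, all on the other strand. A WT region covered 250 of these 250 bases in Fos, 217 in Junb and 184 in Nr4a1, and KO regions covered 0 in each.

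In Jun (chr4:95052223-95052472, minus strand) capitals mark TGACATCA, a match to TGACNTCA, the form of the AP-1 element that JUN and ATF2 dimers bind, and after it a MEF2 site. In Egr2 (chr10:67537316-67537565 and 67537789-67537818, plus strand, before the starts at 67537566 and 67537869) they mark CArG boxes, the binding sequence of serum response factor. The TGACG core also lay before the Egr2 start at 67537869, at -111 to -107 and -55 to -51, and is left unmarked here. It was thus not confined to promoters with a region in WT only.
Jun: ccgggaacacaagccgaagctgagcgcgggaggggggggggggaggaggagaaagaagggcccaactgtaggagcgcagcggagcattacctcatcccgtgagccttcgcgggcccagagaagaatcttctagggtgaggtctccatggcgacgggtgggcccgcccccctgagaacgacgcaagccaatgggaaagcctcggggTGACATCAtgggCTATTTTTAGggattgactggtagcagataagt
Egr2, before the start at 67537566: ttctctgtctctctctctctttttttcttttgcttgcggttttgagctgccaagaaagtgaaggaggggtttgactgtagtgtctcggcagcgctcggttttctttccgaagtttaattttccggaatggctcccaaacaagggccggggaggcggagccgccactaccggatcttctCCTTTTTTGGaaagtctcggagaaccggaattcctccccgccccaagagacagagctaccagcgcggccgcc
Egr2, before the start at 67537869: tcctcagtCCATATATGGgcagcgacgtca
Regions of both lists covered all 250 bases of the Jun sequence, the 250 bases of the longer Egr2 sequence and the 30 bases of the shorter one. Over all 32544 distinct promoter windows of 300 bp, read on both strands, a CArG box was present in 1.64%, a MEF2 site in 3.16%, TGACNTCA in 8.62% and TGACG in 20.9%. TGACG can overlap TGACNTCA where N is G. Among the 7 genes, TGACG was present in 5 (Egr2, Fos, Fosb, Junb and Nr4a1) and GGGCGG, the GC box of SP1, in 5. TATAAA was present in 2, at -33 to -28 in Fos and at 0 to 5 in Junb, where 0 is the annotated start. A CArG box was present in Egr2, and the canonical AP-1 element TGANTCA in 0 genes. The windows held 250 bp before the annotated start and 50 bp from it on, so sites farther out were not searched. Shares of all windows were 35.9% for GGGCGG, 13.6% for TATAAA and 7.79% for TGANTCA. Such matches describe the letters in these windows and not the binding of a factor.

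The promoter windows were rich in G and C apart from that of Jund. The share of G and C was 72.3% in Nr4a1, 68.3% in Fosb, 65.3% in Junb, 60% in Jun and 58.7% in Fos, against a median of 52.7% over all windows, and the Jund window had 46.7%. CpG dinucleotides numbered 35 in Nr4a1, 25 in Fosb, 21 in Junb, 20 in Fos and 15 in Jun, and 3 in Jund, where the median window held 7. The Jund window had no region of either list, and its WT region lay inside the gene.

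At their gene ends, 5 of the 10 genes were called in WT (Egr1, Fos, Jun, Junb and Jund) and 2 in KO (Egr1 and Jun). Both genes with a KO region also had a WT region, which left Fos, Junb and Jund called in WT only and 0 genes in KO only. The shares over all protein-coding genes were 34.6% for WT, 21.1% for KO, 20.5% for both and 0.585% for KO only, and 59.4% of those called in WT were also called in KO. A count of 2 of 5 is too small to tell from that share. Egr2, Egr3, Nr4a1, Nfatc1 and Fosb had no gene-end region in WT or KO. For Egr2 in both lists and for Nr4a1 in WT this follows from the annotation. The annotated starts of the promoter table lay inside the RefSeq gene span, 1.03 to 3.46 kb from its low end in Egr2 and 12.9 kb in Nr4a1. In KO, Nr4a1 had no region at its annotated start either. Counted within 1000 bp of annotated starts, 6 of 7 genes had a WT region and 2, Egr2 and Jun, a KO region, where all protein-coding genes had 36.8% and 22.7%, and 59.8% of those with a WT region also had a KO region.

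Over the gene bodies with 20 kb on each side, all 10 genes had a WT region, with 1 to 4 each, and 8 had a KO region. Nfatc1 and Fosb had none in KO. Of all protein-coding genes, 58.0% had a WT region in such a window and 39.9% a KO region, and the mean number of WT regions per gene was 2.4 for the 10 genes against 1.08 over all. The windows of the 10 genes held 24 WT and 14 KO regions. Among the WT regions, 13 met a KO region (54.2%, exact Clopper-Pearson 95% interval 32.8 to 74.4, which covers counting error only), beside 46.6% for WT regions near any protein-coding gene. Each of the 14 KO regions met a WT region. The shares near any protein-coding gene were 93.0% of KO regions, 95.6% of those at gene ends and 88.8% of those within 20 kb at no gene end. With regions of -log10 q of at least 5 in both lists, 7 of 22 WT regions were kept (31.8%), where 46.1% of all 12692 WT regions at that threshold were.

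**Figure D1:**
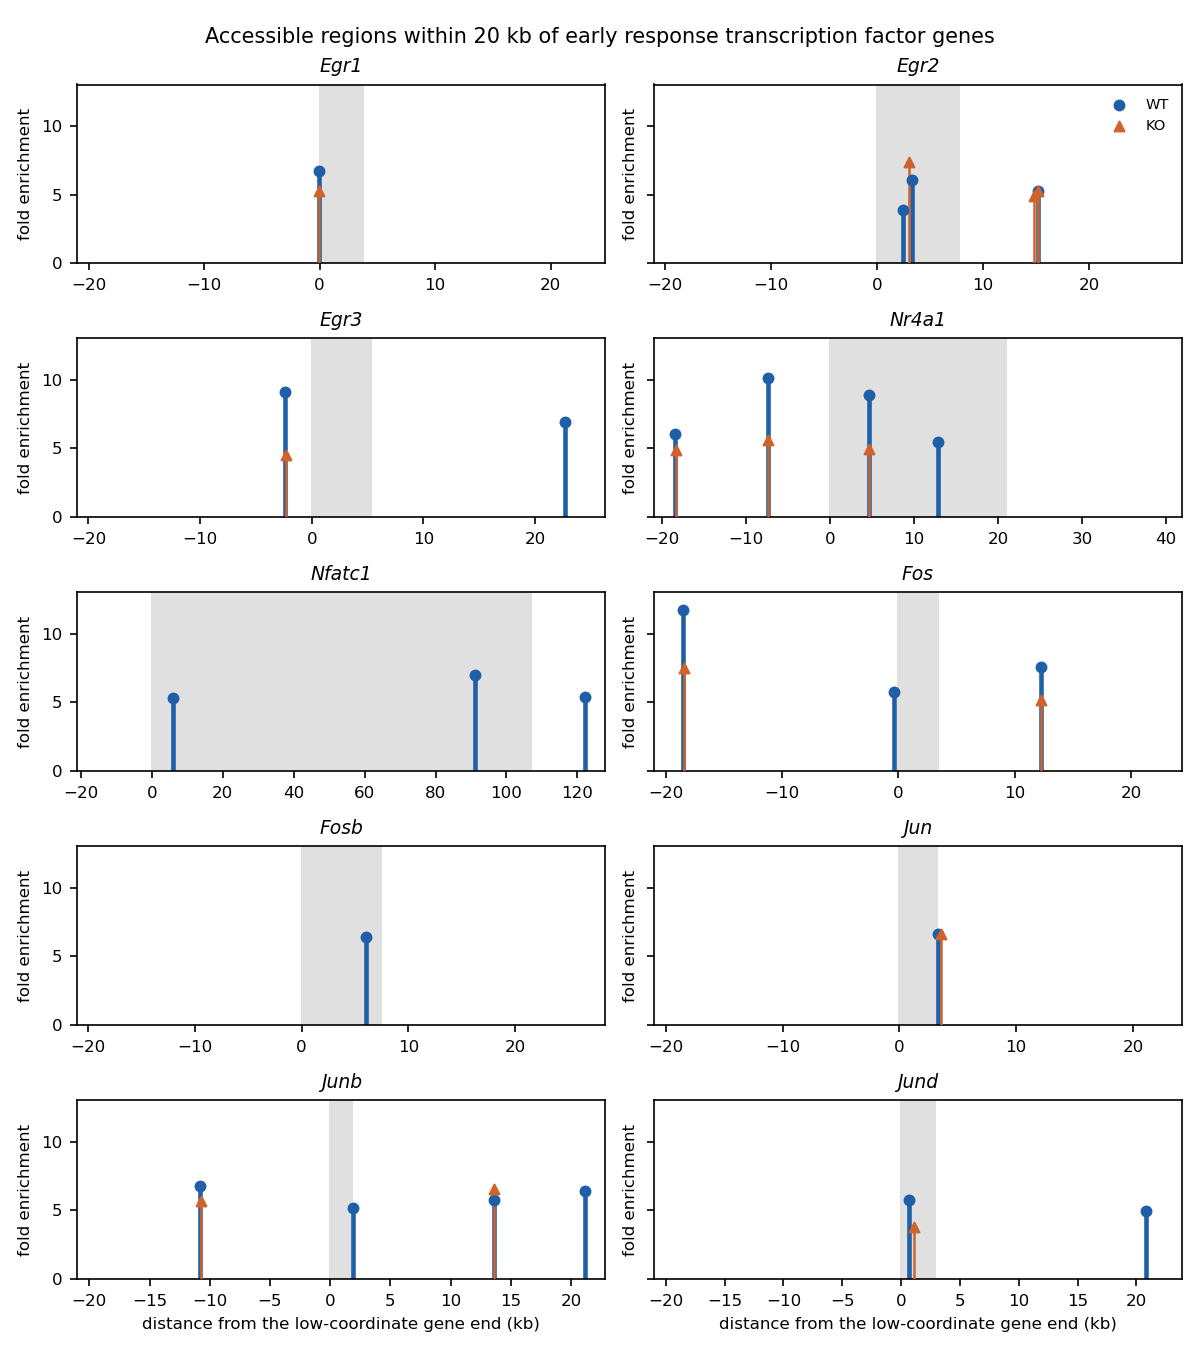
Fold enrichment at the summit (vertical axis) of each WT region (circles) and KO region (triangles) against the distance of its summit from the low-coordinate gene end in kb (horizontal axis), 1 panel per gene, with the gene body shaded. The panels of Nfatc1 and Fosb hold WT regions only, and at Fos the WT region at the gene start stands alone while the regions on either side of the gene appear in both lists.

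Among the EGR genes, Egr1 (chromosome 18, 34861207 to 34864956) had 1 region in each list, at its low-coordinate end. Reads over the summit numbered 35 in WT (exact Poisson 95% interval 24.4 to 48.7, counting error only, as for all such intervals here) and 17 in KO (9.90 to 27.2), and the fold enrichments were 6.69 and 5.26. At the depth of the KO list, the WT reads would come to 26.3. The intervals of the reads overlapped. KO held 32.7% of the summed reads (20.3 to 47.1), an interval that includes the depth share of 42.9%. The WT region spanned 539 bp and the KO region 211 bp, all of it inside the WT region, with summits 13 bp apart. No other region of either list lay within 20 kb of Egr1.

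Egr2 (chromosome 10, 67534469 to 67542188) had the promoter region that was nearest to equal in reads. The region over its annotated starts (67537301 to 67537906 in WT, 67537284 to 67537838 in KO) had 28 reads over the summit in WT and 27 in KO, with fold enrichments of 6.09 and 7.37. KO held 49.1% of the reads (35.4 to 62.9), and 96.2% of all paired regions with 40 to 59 summed reads had a lower KO share. The summits stood 330 bp apart, on different starts: the WT summit was at -63 bp from the start at 67537869 and the KO summit at -90 bp from the start at 67537566. The counts of 28 and 27 reads are thus not from the same position, which limits their comparison with the depth share. A weaker WT region with its summit at -0.629 kb from the start at 67537566 (67536829 to 67537069, fold 3.88, 17 reads) was not called in KO. A WT region 7.13 kb beyond the gene (67549319 to 67549780, 17 reads) lay by the end of Ado, a thiol dioxygenase gene, and met 2 KO regions, of 11 and 12 reads.

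Egr3 (chromosome 14, 70077317 to 70082613) had the lowest KO share among the 13 WT regions around the 10 genes that met a KO region. Its WT region at -2.36 kb from the low-coordinate end (70074772 to 70075091) had 34 reads over the summit (23.5 to 47.5) and a fold enrichment of 9.11, at percentile 80.9 of the WT list. A percentile here is the rank of the fold from the lowest up, ties averaged, as a percent of that list's regions. The KO region there (70074885 to 70075216) had 11 reads (5.49 to 19.7) and a fold enrichment of 4.55, at percentile 5.04 of the KO list. The Poisson intervals of the raw reads did not overlap, but they are not scaled for the lower depth of KO. The 25.6 reads expected from WT at the KO depth, given without an interval, lay above the KO interval. KO held 24.4% of the reads (12.9 to 39.5), and 0.843% of the 2373 paired regions with 40 to 59 summed reads had a lower share. The median of those paired regions was 37.8%, which lies inside the interval. Only regions called in both lists form pairs, so sites whose KO reads fell below calling are missing from that rank. Of all WT regions with 25 to 34 summit reads, 84.7% had a KO region. The second WT region near Egr3 (70099919 to 70100210, fold 6.91, 16 reads) was at the end of Bin3, a membrane-shaping adaptor gene, and was not called in KO.

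Nr4a1 (chromosome 15, 101253902 to 101274795), with Junb, had the most WT regions, 4, of which 3 were in both lists. The region at its annotated start (101266662 to 101266876), which covers 184 of the 250 promoter bases shown above, was the WT-only one. It had 12 reads over the summit and a fold enrichment of 5.48, and 13.3% of all WT regions with under 15 summit reads had a KO region. The 3 shared regions lay at -31.4, -20.3 and -8.29 kb from the annotated start. Reads over their summits were 16, 29 and 27 in WT and 13 at each in KO, and fold enrichments were 6.07, 10.1 and 8.86 in WT and 4.90, 5.65 and 4.93 in KO. KO shares of the reads were 44.8%, 31.0% and 32.5%, each with an interval that includes the depth share. The 3 shared regions, of which the one at -8.29 kb lay inside the RefSeq gene span, thus stayed above the calling threshold in KO. The region at the annotated start was not called there.

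Nfatc1 (chromosome 18, 80606205 to 80713071) is the longest of the genes, and its long window held 3 WT regions and 0 KO regions. Inside the gene, regions at 80612024 to 80612291 and 80697109 to 80697370 had 14 and 24 reads over the summit and fold enrichments of 5.36 and 6.98. The other WT region lay 15.1 kb beyond the high-coordinate end (80728167 to 80728366, fold 5.43, 13 reads). The region of 24 reads was the strongest by reads of the 11 WT regions without a KO region, which had 12 to 24 reads. Of all WT regions with 20 to 24 summit reads, 57.1% overlapped a KO region. The related Nfatc3, which encodes the NFAT protein abundant in DP thymocytes, had a gene-end region in both lists (fold 6.08 in WT and 8.94 in KO, 22 and 21 reads), and Nfatc2 had a gene-end region in neither.

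Among the FOS genes, Fos (chromosome 12, 85473890 to 85477274) had a WT-only region at its start between regions on both sides that were kept. The start region (85473468 to 85473924) had 17 reads over the summit (9.90 to 27.2) and a fold enrichment of 5.73 in WT. Among all WT regions with 15 to 19 summit reads, 32.2% had a KO region, so that a missing call at this level is the common outcome. The WT region at -18.5 kb (85455119 to 85455607) was the strongest around the 10 genes by fold enrichment, 11.7, at percentile 93.9 of the WT list, with 43 reads (31.1 to 57.9). In KO it had 17 reads (9.90 to 27.2) and a fold enrichment of 7.5 (percentile 66.3). The Poisson intervals of these raw reads did not overlap, but they are not scaled for the lower depth of KO. KO held 28.3% of these reads (17.5 to 41.4), an interval below the depth share that still holds the median of 38.1% over paired regions with 60 to 99 summed reads. The region at 12.2 kb after the start had 20 reads in WT and 10 in KO, with fold enrichments of 7.61 and 5.14. Fosb (chromosome 7, 19302696 to 19310118) had 1 WT region, 1.29 kb inside the gene from its annotated start (19308568 to 19308816, fold 6.38, 18 reads), and none in KO.

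Among the JUN genes, Jun (chromosome 4, 95049036 to 95052222) had the widest region and the most reads. Its start region spanned 803 bp in WT (95052124 to 95052926) and 698 bp in KO (95052195 to 95052892), all of the KO region lying inside the WT one. Reads over the summit numbered 45 in WT (32.8 to 60.2) and 28 in KO (18.6 to 40.5), and the fold enrichments were nearly alike, 6.63 and 6.65. KO held 38.4% of the reads (27.2 to 50.5), close to the median of 38.1% of paired regions with 60 to 99 summed reads. Local background was also highest here among the regions around the 10 genes, at 5.94 reads in WT against 3.36 for KO. The WT summit was at -79 bp from the start and the KO summit at -0.415 kb.

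Junb (chromosome 8, 84976909 to 84978748) had a start region in WT only and shared regions in neighbouring genes. The start region (84978700 to 84978965) had 16 reads over the summit and a fold enrichment of 5.18 in WT and was not called in KO. A region inside Rnaseh2a, which encodes the catalytic subunit of ribonuclease H2, had 18 reads in WT and 14 in KO (fold 6.79 and 5.68). A region inside Hook2, a microtubule linker gene (84990417 to 84990617 in WT), had 18 reads in WT and 19 in KO (fold 5.72 and 6.54), the highest KO share of the 13 regions at 51.4% (34.4 to 68.1). Another WT region inside Hook2 (84997929 to 84998242, 17 reads) was not called in KO. Whether these regions act on Junb or on the genes they lie in was not tested.

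Jund (chromosome 8, 70697739 to 70700616) had a region inside the gene in both lists, with summits at 0.702 kb from the start in WT and 1.13 kb in KO. The WT region (70698370 to 70698903) had 22 reads over the summit and a fold enrichment of 5.75, and the KO region (70698766 to 70699068) 12 reads and 3.78, at percentile 0.968 of the KO list. The overlap was 138 bp of the KO region's 303 bp, and the KO region began just outside the window of 1000 bp. That is why Jund was counted as WT only at gene ends and as kept by overlap. A WT region of 12 reads by the ends of Iqcn and Gm3336 was not called in KO.

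Over the 13 WT regions with a KO region, summed reads over the summits were 352 in WT and 206 in KO, a KO share of 36.9% (32.9 to 41.1, counting error only). Each list was read at its own summit. The 2 summits stood 330 bp apart at the Egr2 promoter, 336 bp at Jun and 431 bp at Jund, so those counts are not from the same position. The depth share is 42.9%, and all 6875 regions paired 1 to 1 had a pooled share of 40.4%, with medians of 41.2% at 25 to 39 summed reads, 37.8% at 40 to 59 and 38.1% at 60 to 99. Shares of reads exist only for regions called in both lists, so WT regions not called in KO do not enter them. The median over the 13 regions was 35.3%, and the range 24.4% (Egr3) to 51.4% (Junb, inside Hook2). In 9 of the 13 the share was under the depth share, and in 2 of them, the regions upstream of Egr3 and of Fos, the whole interval was. The median over all pairs, 39.6%, was under the depth share too, so that such a share was the common case. How often the whole interval lay under it among all pairs was not computed. The local background, which counts reads in a wider stretch around each summit, had KO to WT ratios from 0.507 (Fos, -18.5 kb) to 1.03 (Nr4a1, -31.4 kb), with a median of 0.745, against 0.692 over all pairs and 0.752 for the depth. Near Egr3 the ratio was 0.577, near Egr1 0.553 and near Jun 0.566, each under the 0.692 over all pairs. The part of the local background in the shares of reads was not tested.

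**Figure D2:**
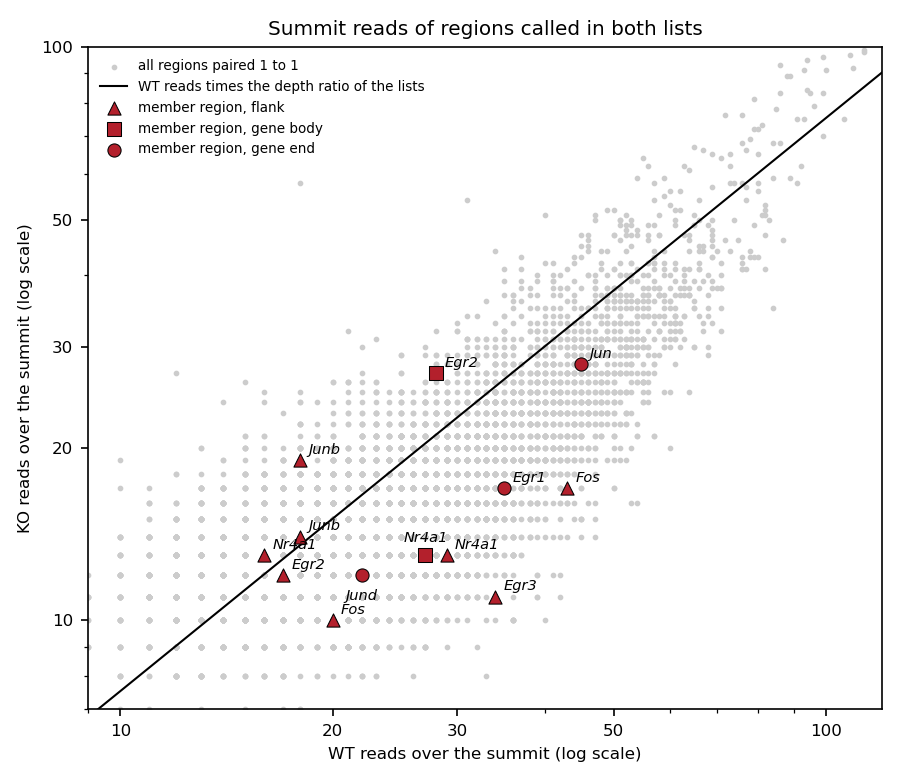
Reads over the summit in WT (horizontal, log scale) and KO (vertical, log scale) for the 13 regions around the 10 genes called in both lists (red, labelled by gene, shape by place) and for all regions of the 6875 pairs matched 1 to 1 that fall inside the axes (grey). The line is the WT reads times the depth ratio of 0.752: the Egr2 promoter (28 and 27 reads) and the region inside Hook2 near Junb (18 and 19) lie above it, and the regions upstream of Egr3 (34 and 11) and Fos (43 and 17) lie farthest below it.

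Around the 10 genes, the share of WT regions called in KO rose with the reads in WT, as over all WT regions. A calling threshold gives such a rise by construction, so it is no result about these genes. The 11 WT regions without a KO region had 12 to 24 reads over the summit (median 16) and fold enrichments of 3.88 to 6.98, and the 13 with one had 16 to 45 reads (median 27) and 5.23 to 11.7. Regions with under 15 reads were kept in 0 of 4 cases, those with 15 to 19 reads in 4 of 10, those with 20 to 24 in 2 of 3, and those with 25 or more in all 7. The shares over all WT regions were 13.3%, 32.2% and 57.1% for the first of these classes, then 84.7% at 25 to 34 reads and 97.2% at 35 or more. The classes around the 10 genes were too small to tell their shares from those of all WT regions of like reads. By place, 3 of 5 WT regions at gene ends, 2 of 7 in gene bodies and 8 of 12 in the flanks had a KO region. Over all protein-coding genes the shares were 55.1% at gene ends and 36.6% for regions within 20 kb at no gene end. With -log10 q of at least 5 in both lists, 31.8% of the WT regions around the 10 genes were kept, against 46.1% of all WT regions.

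**Figure D3:**
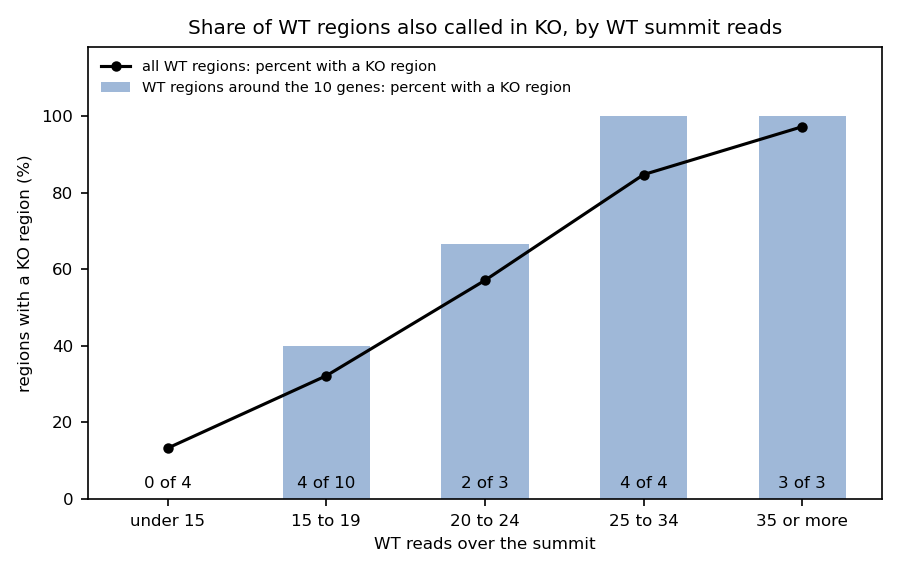
Percent of WT regions that overlap a KO region (vertical axis) in classes of WT reads over the summit (horizontal axis), as bars for the 24 regions around the 10 genes and as a line for all 15215 WT regions. The bars rise with the reads as the line does, from 0 of 4 regions under 15 reads to 3 of 3 at 35 or more.

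Of 26 other early response factors, many of the same families, 10 had a gene-end region in WT (38.5%, against 34.6% of all protein-coding genes), and 5 of these also in KO (50%, against 59.4%). Called in both were Klf6 (fold 8.74 in WT and 7.30 in KO), Irf8 (6.43 and 6.09) and the NF-kappa-B subunit genes Relb (7.59 and 7.31) and Rel (5.11 and 6.67). The paralog Fosl1 was also called in both (5.06 and 4.92). In WT only were Ier5 (7.91), Klf4 (6.21), Maff (5.59), Ier2 (5.58) and Batf (4.51). In KO only were 2 of the 26, Jdp2 (5.46, 12 reads), a repressor of AP-1, and Nab1 (5.96, 12 reads), a corepressor of EGR proteins. The share in KO only over all protein-coding genes was 0.585%. Both calls lay below the median KO region of 15 summit reads, and a gain in KO was not tested. Egr4, Nr4a2, Nr4a3, Fosl2 and Myc had none. The paralogs Egr4 and Fosl2 had no region of either list over the gene with 20 kb on each side either.

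Among the signalling genes upstream, 14 of 19 genes of the calcium, calcineurin and NFAT list had a gene-end region in WT (73.7%) and 8 of these also in KO (57.1%). In the RAS, ERK, SRF and ETS list the counts were 14 of 21 (66.7%) and 9 (64.3%), and in the JNK and p38 list 8 of 9 (88.9%) and 8. The shares over all protein-coding genes were 34.6% in WT and, of those, 59.4% also in KO. Itpr1, the calcium channel of the endoplasmic reticulum (fold 14.5 in WT and 11.3 in KO), Ppp3ca, the catalytic subunit of calcineurin (13.5 and 11.0), and Cabin1, a calcineurin inhibitor (10.4 and 8.18), led the first list, with Rcan1, another calcineurin inhibitor, next (7.57 and 5.04). Ppp3r1, the regulatory subunit of calcineurin, had a gene-end region of 33 reads and fold 10.0 in WT and none there in KO. Over the gene with 20 kb on each side it had 2 KO regions. The calcium entry genes Orai1 (7.45) and Stim2 (6.5) and the calmodulin gene Calm2 (6.17) also had gene-end regions in WT only. Of the ERK arm, the SRF coactivator gene Mrtfa (11.6 and 10.9) was in both lists and so was Creb1 (9.43 and 5.81), whose strongest gene-end regions in the 2 lists lay apart. Map2k1, which encodes MEK1 (8.84), and Rasgrp1, the RAS activator of thymocytes (7.94), Ets2 (4.60) and Braf (4.33) were in WT only. Srf and Ets1 had none. The genes of the JNK and p38 list in both region lists included Map2k6, a kinase of p38 (12.5 and 11.4), Atf2 (10.0 and 8.33), Map2k4, a kinase of JNK (9.38 and 10.3), and Mapk9, which encodes JNK2 (9.33 and 6.0).

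Downstream of the early response, 12 of 18 genes of negative feedback had a gene-end region in WT (66.7%, against 34.6% of all protein-coding genes) and 6 of these also in KO (50%, against 59.4%). The phosphatase genes Dusp10 (11.6 and 8.46), Dusp5 (8.33 and 7.45) and Dusp6 (6.63 and 5.14) and the antiproliferative gene Btg1 (7.86 and 5.90) were in both lists. Nfkbia (6.80), Tnfaip3 (5.0), Spry1 (6.60) and Spry2 (5.26) were in WT only. Of 16 target genes, 6 had a gene-end region in WT (37.5%, against the same 34.6%) and 3 of these also in KO (50%, against 59.4%): Id2 (10.0 and 9.88), Tox (9.21 and 5.90) and the activation marker Cd69 (6.52 and 7.02). Bcl2l11, the death gene of negative selection (6.98, 29 reads), Gadd45b (6.12) and Gfi1 (4.11) were in WT only. Id3, which EGR proteins induce, was in KO only (4.93, 14 reads, under the KO median of 15), as were 0.585% of all protein-coding genes. In all these lists WT only refers to gene ends, and some such genes, among them Stim2, Map2k1, Braf, Spry1 and Gfi1, had KO regions within 20 kb. No test was made of these lists.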

How the data were processed

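ATAC-seq of DP thymocytes was deposited as 1 region list per group, made by the authors from both replicates. MACS2 2.1.4 called the peaks on build mm10, and FastQC, Trim Galore, Bowtie2, GATK, Picard and deepTools 3.4.1 were also used, per the submitters' processing notes. Shifting of reads, handling of duplicates and blacklisting are not given in the sources used here. The deposited values were a score (the whole part of 10 times the -log10 q), the fold enrichment at the summit as a ratio to local background, and -log10 of p and of q. The authors' fold served to describe, rank or filter regions inside 1 list.

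Reads over each summit and the local background were solved from the deposited fold, (reads + 1) / (background + 1), and the Poisson p. Whole read numbers matched the deposited -log10 p within 0.000172, and 100% of local backgrounds fell on steps of 0.02. The most frequent background (2636 WT and 736 KO summits) was taken as relative depth. A read is a unit of the caller's pileup.

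Regions were matched where they shared 1 bp or more. Positions of genes are those of the RefSeq table of GRCm38.p6, and starts and strands those of the RefSeq promoter table. Exons and introns were not set apart. The text names the 10 genes with all their regions and, per further list, the genes in KO only and up to 4 of highest WT fold in both lists and in WT only, each with its strongest gene-end region. Some genes that this rule takes are not reported here. Other genes were named after their values were seen. The genes and lists were chosen with earlier results of these data known. Alternatives changed the windows, the overlap, the q threshold and the list length. The solver and the overlaps were tested on simulated data. Software was scipy 1.17.1, numpy 2.4.6, pandas 2.3.3 and matplotlib 3.10.9 under Python 3.11.15.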

Additional observations from a re-analysis of the deposited data

How the results depend on the processing

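Of 38 values under other settings, 32 stayed within 1.5 times the reported count, or within the counting interval for the share of reads. With a -log10 q of at least 5 in both lists, the KO regions around the genes fell from 14 to 7 and the WT regions with a KO region from 13 to 7, since regions under the threshold leave the lists. When WT was cut to the 7645 regions of highest fold, the length of the KO list, 2 genes in place of 5 were called in WT at a gene end, 10 WT regions in place of 24 lay around the genes, and 8 of these had a KO region (80%, where 70.3% of all WT regions so kept did), with a KO share of reads of 32.9%. With flanks of 50 kb, 15 of 36 WT regions had a KO region (41.7%). The KO share of reads went from 35.8% to 38.5% over its other alternatives. Windows around annotated starts, and the share of reads at equal list length, were added after the data were seen. A stricter overlap was not run for genes called in both lists, a count that uses no overlap. No paired analysis was possible because each group's replicates were joined in 1 list, and for the same reason leaving out a replicate was not run. The regions around the genes rest on 10 to 45 reads at the summit, and the printed intervals cover counting error only. They do not show which differences between genotypes could be detected, since there is no replicate value.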
